A study of Mus musculus with 2 samples.

Results

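In healing corneal epithelium of the mouse, 357 rows of an expression array that carry no gene symbol were at least 2-fold brighter than in uninjured epithelium. They are rows without a name in the platform annotation, 357 of 65952 rows in all and of 33206 rows without a symbol. No detection call shows that each of them was transcribed. The rows were chosen by their own values: the brighter of the 2 values had to reach 5.44, the median of all values of the table (called the filter from here on), and the log2 value of the injured sample had to exceed that of the uninjured sample by 1 or more. These chosen differences are a description and support nothing by themselves. The study compared C57BL/6 mice of both sexes, aged 8 weeks and anesthetised with ketamine and xylazine, whose corneal epithelium was scraped off in full thickness as far as the limbus with a 0.5 mm rust ring remover. The injured sample is epithelium taken about 48 h later, when 10% of the wound was still open, and the uninjured sample is epithelium of the fellow eyes, so the controls had the same anaesthesia and a wound in the other eye. Each group is 1 array, and the labels do not give how many animals stand behind it. With 1 array a group there is no replicate check and no test, and every difference below is a log2 difference, injured minus uninjured, between these 2 arrays.

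The corneal epithelium is a stratified sheet that closes a wound by the migration of cells from the edge and the limbus, followed by division and renewed stratification. A transcriptome array carries rows for predicted or sequenced transcripts beyond the known genes, among them long non-coding RNAs, pieces of introns and extensions of known genes, and such rows keep only an identifier. Each identifier here holds a chromosome code and a running number (TC0300002385 is number 2385 of chromosome 3), and all end in .mm.1, which is left out below. A named row is a row with 1 gene symbol, and places are counted over all rows. The numbers run through a forward list and then a reverse list on each chromosome: 98.2% of 18505 named rows lay in the list of their RefSeq strand, 99.7% of 31057 lay under the code of their RefSeq chromosome, and in 99.1% of 30223 pairs of neighbouring named rows the RefSeq starts did not descend. A named row that precedes an unannotated row in its list therefore belongs to a gene that begins at the lower coordinate. In the forward list that is the gene's own start, in the reverse list its far end, and in both the unannotated row begins inside that gene's span or beyond it. Which of these holds for a given row was not tested, since coordinates of the rows were not used here.

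The sequences of the unannotated rows themselves were not used here. In 5 pairs of a gene and the unannotated row directly behind it both were at least 4-fold higher (Sema3c, Anxa3, St3gal4, Flrt2 and Ano6), and the promoters of 2 of these genes, Sema3c and St3gal4, are shown as examples of these pairs. Sequences are also shown for 5 microRNAs of genes whose rows lie 1 or 2 places from such a row. Those of Mir7679, Mir1962 and Mir8115, as near in row order, are not printed. RefSeq places Mir8115 on chromosome 5, whereas its row here stands under chromosome 11. The promoter windows are RefSeq's (GRCm38.p6), run from 250 bases ahead of the annotated start to 50 bases after it, and are written 5′ to 3′ with the GC box GGGCGG, searched on both strands, in capitals. Sema3c lies at chr5:17574566-17574865 on the plus strand and St3gal4 at chr9:35116815-35117114 on the minus strand.
Sema3c: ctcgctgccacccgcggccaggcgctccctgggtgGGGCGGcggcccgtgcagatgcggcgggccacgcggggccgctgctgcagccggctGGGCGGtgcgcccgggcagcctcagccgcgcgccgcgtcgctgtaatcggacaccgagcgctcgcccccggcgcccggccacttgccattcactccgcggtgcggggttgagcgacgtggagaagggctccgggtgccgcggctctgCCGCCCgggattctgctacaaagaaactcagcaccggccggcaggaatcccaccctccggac
St3gal4: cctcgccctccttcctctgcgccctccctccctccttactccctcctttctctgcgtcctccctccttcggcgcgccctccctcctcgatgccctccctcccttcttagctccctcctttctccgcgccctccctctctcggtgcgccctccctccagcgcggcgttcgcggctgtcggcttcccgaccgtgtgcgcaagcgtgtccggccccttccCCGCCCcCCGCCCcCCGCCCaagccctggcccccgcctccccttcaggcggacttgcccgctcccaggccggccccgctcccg
Both windows hold 3 GC boxes, as does that of Ano6, and the window of Flrt2 holds 0, where 35.7% of 32841 RefSeq promoter windows hold at least 1. The AP-1 letters TGANTCA (in 7.81% of all windows), the TEAD letters GGAATG (in 14.7%) and the TATA letters TATAAA (in 13.6%) were found on neither strand in these 4 windows, and no matches of different motifs overlapped. The GC content of the 4 windows was 75.7% in Sema3c, 74.0% in St3gal4, 69.7% in Ano6 and 55.3% in Flrt2.

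The mature microRNAs are shown with the seed, bases 2 to 8, in capitals, from RefSeq (GRCm38.p6), and these 5 lie on the plus strand. MicroRNAs pair with messenger RNAs through this seed, and miR-125b-5p (chr9:41581940-41581961) and miR-6394 (chr7:96305740-96305760) share theirs. The others are miR-708-5p (chr7:96249450-96249472), let-7e-5p (chr17:17830366-17830387) and miR-139-5p (chr7:101475382-101475403).
miR-125b-5p: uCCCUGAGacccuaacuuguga
miR-6394: uCCCUGAGuggggccaggucu
miR-708-5p: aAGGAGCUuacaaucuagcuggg
let-7e-5p: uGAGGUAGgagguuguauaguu
miR-139-5p: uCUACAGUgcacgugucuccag

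Over the whole table, 14035 unannotated rows reached the filter (42.3%), against 63.3% of 31254 rows with 1 gene. Of the unannotated rows above the filter 2.54% were higher by 1 or more, the 357 described here, and 4.55% were lower. The 95% exact binomial interval of the 2.54% was 2.29% to 2.82% and covers counting error only. It takes the rows as independent, which rows with identical values are not, so it may be too narrow. Of 19798 rows with 1 gene above the filter, 4.11% were higher and 3.91% lower. Among unannotated rows past the threshold 35.8% were therefore on the higher side, and among rows with 1 gene 51.3% were. The epithelial labels were checked against markers: Krt12, the keratin of differentiated corneal epithelium, was at 10.85 after wounding and 14.07 without it, Krt5 at 13.69 and 13.85, and Krt14 at 13.38 and 11.16. Of 9 corneal epithelial markers above the filter 5 were lower and 1 higher by 1 or more, and Slurp1 and Lypd2 had the largest gaps (6.61 against 13.22, and 5.99 against 13.48). Of 8 conjunctival and goblet cell markers, all above the filter, 2 were higher, Krt8 (9.28 against 7.76) and Krt19 (11.68 against 10.58), and 1 was lower, Muc5ac (5.81 against 7.07). Of 8 keratocyte and stroma markers 6 reached the filter, 0 were higher and 1 was lower, Dcn (4.77 against 6.09), while Kera and Lum lay below the filter in both arrays. The summed levels of these lists on the log2 scale were 13.54 against 13.31 and 9.105 against 9.255. The neutrophil protein genes Ltf (11.13 against 7.84) and S100a9 (7.67 against 5.77) were higher, and Itgam (8.72 against 10.26) was lower. Other neutrophil genes were nearly equal: Ly6g (5.58 against 5.44), Camp (6.25 against 6.24), Mpo (5.49 against 5.45) and Elane (5.45 against 5.51). S100a8, below the filter, was at 5.32 and 3.77, and the leukocyte gene Ptprc was at 4.39 and 4.29. Of the 15 macrophage and neutrophil markers 11 reached the filter, 2 higher and 1 lower by 1 or more, and their summed level was 11.94 after wounding and 11.25 without it on the log2 scale. In such bulk samples fewer cells of a type and less RNA per cell cannot be told apart, and the part of these cell types in the values below was not tested.

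The injured values of the 357 rows ranged from 5.47 to 12.93 with a median of 7.41, and their uninjured values from 3.67 to 11.74 with a median of 5.97. Their differences had a median of 1.39, a 2.62-fold level, and quartiles of 1.15 and 1.72. A difference of 1.5 or more was reached by 137 rows, of 2 or more by 60, of 3 or more by 19 and of 4 or more by 2. The uninjured value of 135 rows (37.8%) lay below the filter, so these rows passed it only through the injured array and had to be higher. At the bright end, 55 rows reached 10 or more in the injured array, 5 reached 12, and 126 reached the upper quartile of the table (6.93) in the uninjured array too. The members just inside the threshold were TC0400004224 (8.23 and 7.23, a difference of 1.0001) and TC1300000251 (5.68 and 4.68, a difference of 1.0002), and just outside it lay TC1700000133 (8.60 and 7.61, 0.998) and TC1600002099 (8.20 and 7.20, 0.996). Where 1 gene had several rows above the filter, their differences varied with an SD of 0.25 (502 rows of 238 genes), and 136 members lay within that distance above the threshold while 248 unannotated rows lay within it below.

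**Figure D1:**
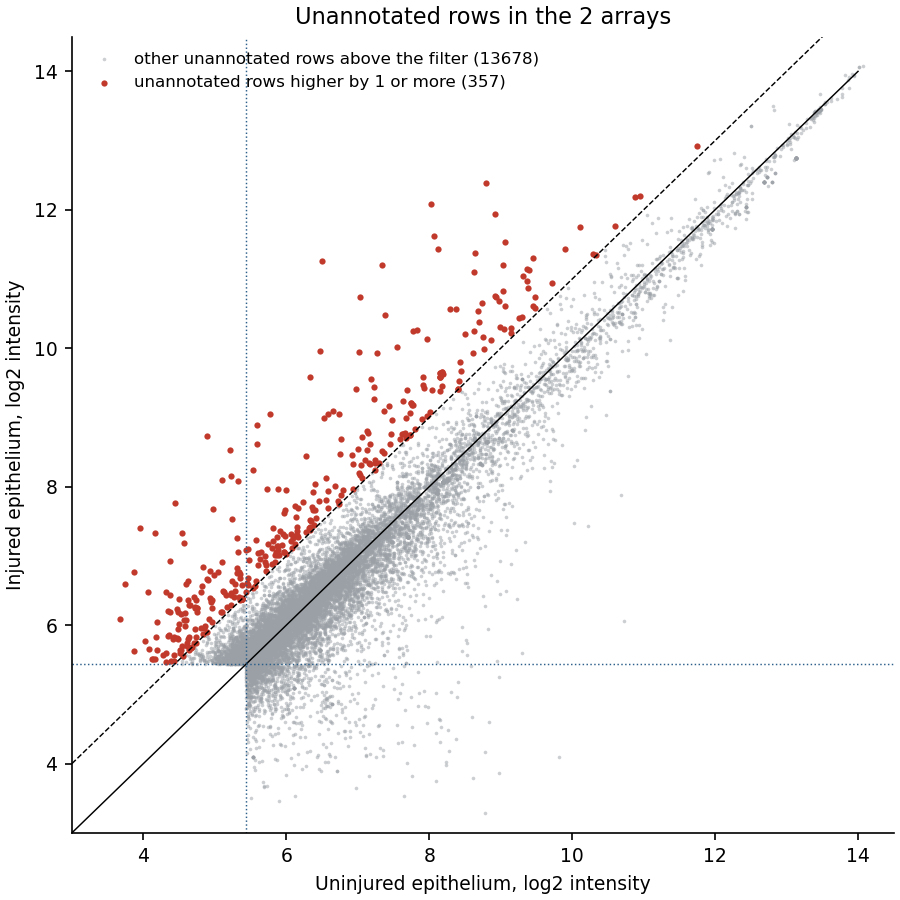
Each point is an unannotated row above the filter, with its uninjured value on the x axis and its injured value on the y axis (log2 intensity, 1 array each). The solid line marks equal values, the dashed line a difference of 1, the dotted lines the filter of 5.44; the 357 higher rows (red) run from 5.47 to 12.93 on the y axis.

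The largest difference belonged to a stretch of chromosome 3 within the genes of the epidermal differentiation complex, a cluster of genes for the cornified envelope of stratified epithelia. TC0300002385 was at 11.25 after wounding and 6.50 in the uninjured epithelium (values are given in this order throughout), a difference of 4.75 or 27.0-fold. TC0300002389, 4 numbers on, was at 9.96 and 6.47, a difference of 3.49, and TC0300002387 between them was at 6.24 and 4.47, a difference of 1.76. The remaining rows of the stretch, TC0300002386 and TC0300002388, had identical values in both arrays (5.14 and 4.42) below the filter. Prr9, the named row directly before the stretch, was at 3.63 and 3.85, and Gm9774 directly behind it at 10.13 and 9.51, so neither flank was higher by 1. Behind Gm9774 follow genes of small proline-rich proteins, cross-linked into the envelope: Sprr1b was at 11.10 and 5.80, Sprr3 at 6.99 and 4.10, Sprr1a at 12.80 and 9.81, while Sprr4 was at 5.53 and 5.84 and Lor, on the other side, at 6.76 and 6.83. The 3 members of the stretch thus lie between 2 named rows that differed by less than 1, with 3 genes higher by more than 2 behind them. Prr9 was below the filter in both arrays, so its small difference says little. Whether a gene without a row of its own name lies in this stretch is not given here, and the members may belong to a known gene.

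TC1900000899, on chromosome 19, was the runner-up at 12.09 and 8.03, a difference of 4.06 or 16.7-fold. It directly follows Gstp3 (6.27 and 5.21), a glutathione transferase gene, and Gstp1 3 places before it was at 10.87 and 10.19, a difference of 0.67. Levels of different rows are not per length and are not ranked against each other. The next 4 rows, TC1900000900 to TC1900000903, differed by 0.59 or less.

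The run of rows beside St3gal4, a sialyltransferase gene, held 3 rows with differences over 3. TC0900002004 was at 11.63 and 8.07, TC0900002005 at 11.43 and 8.13, and TC0900002006 at 11.20 and 7.34, which gives differences of 3.56, 3.30 and 3.86. St3gal4 directly before them was at 9.26 and 6.80, a difference of 2.46, whereas Dcps, a decapping enzyme gene directly behind them, was at 8.35 and 8.03 and the genes after it, Tirap and Foxred1, differed by -0.12 and 0.17. The 3 unannotated rows were chosen for being higher, so a shared direction with St3gal4 does not tie them to that gene. Whether they belong to it was not tested.

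The longest run held 9 rows of chromosome 1, TC0100002045 to TC0100002053. Their injured values lay between 6.37 and 8.90 and their uninjured values between 4.16 and 5.59, 8 of the 9 below the filter. The differences reached 3.84 in TC0100002047 and ended at 1.73 and 1.64 in the last 2 rows. The 9 rows differ from each other in both values, and no row of the run was lower than 1.64. The flanking named rows were Gm7658, a pseudogene, at 7.54 and 7.11 and Rims1, a synaptic scaffold gene, at 5.54 and 5.32. Kcnq5, a potassium channel gene 3 places before the run, was at 7.30 and 5.50, a difference of 1.80, and the 3 rows behind Rims1 were at 4.12 or lower in both arrays.

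A run of 5 rows followed Apbb2, an adaptor protein gene of chromosome 5 that was at 9.05 and 6.38, a difference of 2.66. The rows TC0500002510 to TC0500002514 had differences from 1.20 to 2.79, with injured values of 6.17 to 7.97 and uninjured values of 4.52 to 5.72. TC0500002515 was at 5.84 and 5.12, a difference of 0.72, TC0500002516 after it was again a member (7.57 and 6.14), and Uchl1os behind that was at 6.04 and 6.41. The row with the largest difference, TC0500002513, sits 5 places from Apbb2 rather than next to it.

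The 4 runs of 4 rows had smaller differences. TC1000001467 to TC1000001470, behind Grip1, a scaffold protein gene, had differences of 1.22 to 2.09 with injured values of 6.92 or more, while Grip1 was at 6.40 and 5.89. TC0500003698 to TC0500003701 (1.09 to 1.81), between Stard13 and Vmn2r18, had all uninjured values below the filter, and Stard13 was at 8.03 and 7.50. TC0200003613 to TC0200003616 (1.08 to 1.47) lay before Gm13582, a row below the filter at 4.19 and 4.25, and TC0800002016 to TC0800002019 (1.02 to 1.65) behind Rbpms, an RNA-binding protein gene at 8.55 and 7.26 that also has TC0800002013 (8.13 and 7.06) directly behind it. Among the named rows nearest to these 4 runs on either side, Rbpms alone was higher by 1 or more.

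In all, 99 of the 357 rows (27.7%) formed 36 runs of at least 2 rows with consecutive numbers, of which 15 runs held 3 or more (57 rows) and 21 held 2. The unannotated rows lower by 1 or more formed runs too, 314 of 639 (49.1%), the longest of 20 rows. Other runs of 3 lay behind Lurap1l (7.95 and 6.61; rows from 7.96 and 5.99 down to 6.44 and 5.16), behind Camk2d, a calcium-dependent kinase gene (7.95 and 7.28; rows with differences of 1.19 to 1.36), and between A230001M10Rik and Tspan2, both differing by 0.20 or less (rows with differences of 1.17 to 1.81). Fmnl2, a formin gene that drives actin filament growth at the cell edge, was at 7.96 and 6.20 and was followed by 5 such rows among the next 6, in runs of 2 and 3, with differences of 1.19 to 1.65. The run TC0900000118 to TC0900000120 had injured values of 9.68, 12.20 and 10.16 and uninjured values of 8.44, 10.94 and 8.75. Among runs of 3 or more, those farthest from a named row were TC1200000377 to TC1200000379, 5 places from the nearest (differences of 1.14 to 1.40), the Fmnl2 run of 3 at 4 places and the Stard13 run at 3.

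**Figure D2:**
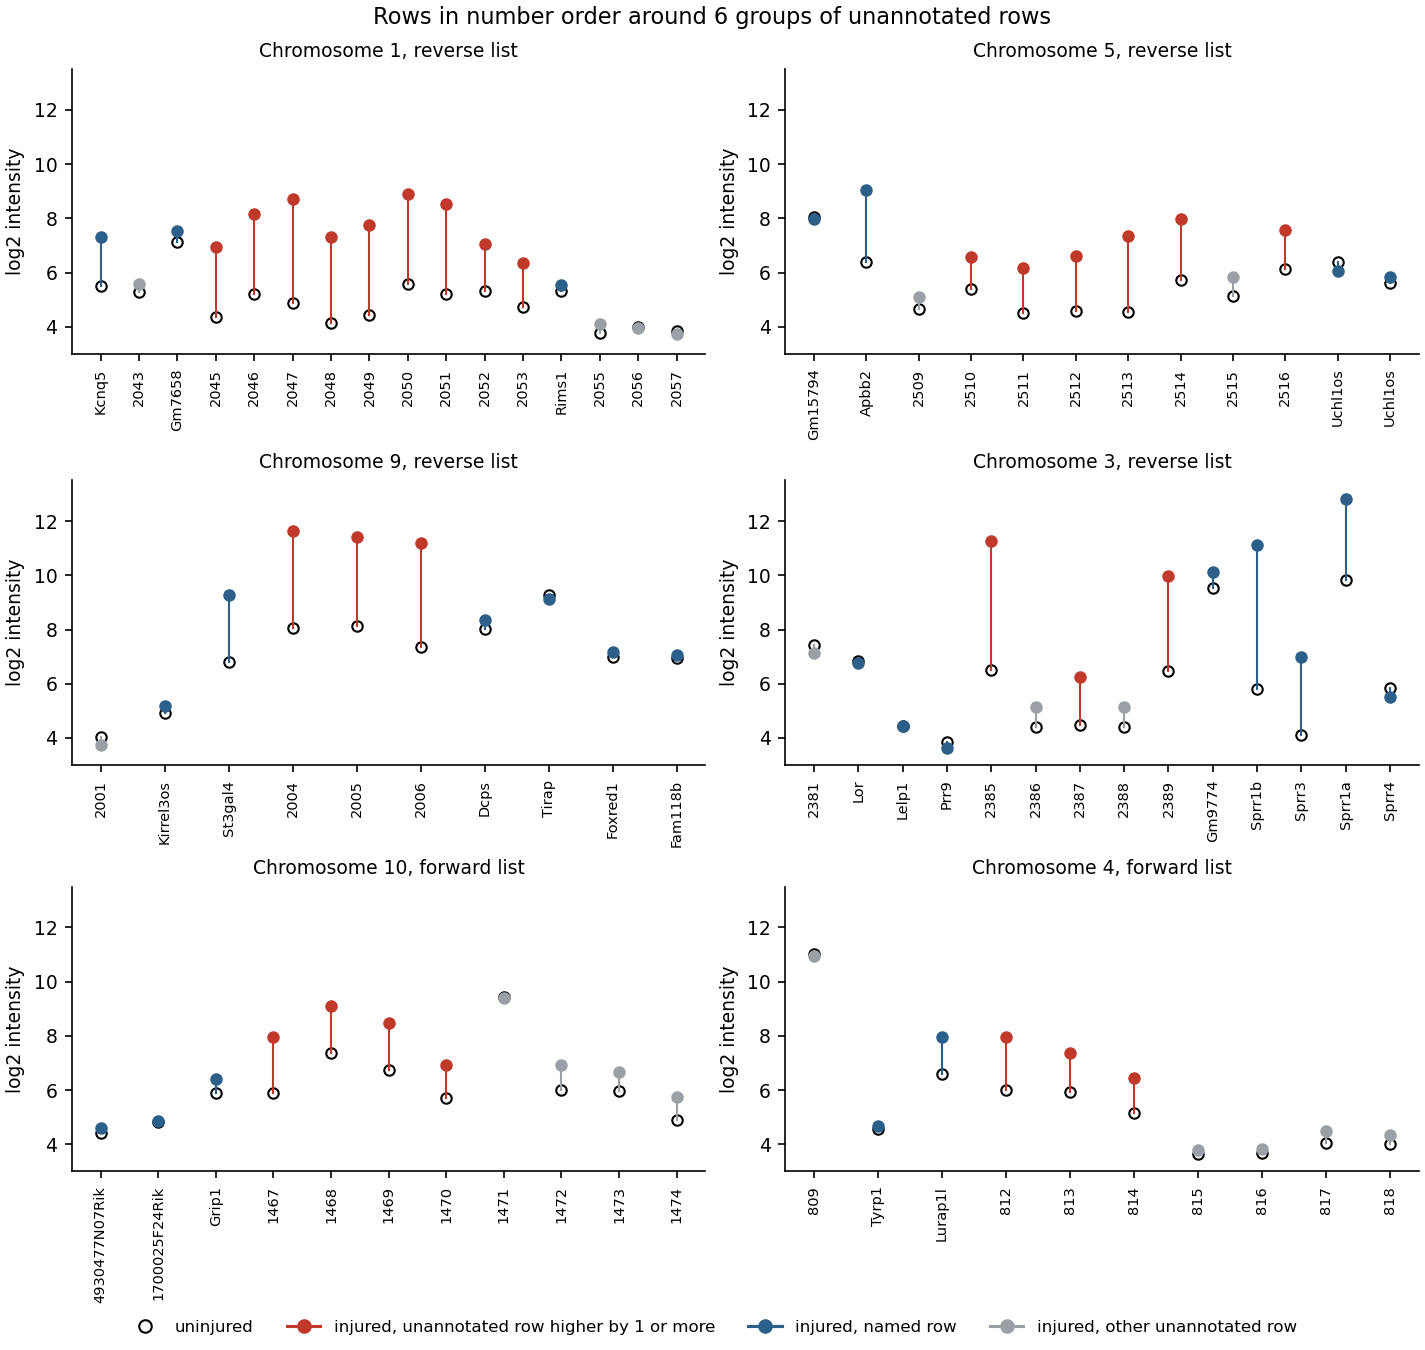
Rows in number order around 6 groups of unannotated rows, with open circles for the uninjured and filled circles for the injured array (log2 intensity on the y axis, row number or gene symbol on the x axis). Red marks unannotated rows higher by 1 or more, blue named rows, grey other unannotated rows; in the panel of chromosome 1 the 9 red rows have uninjured values of at most 5.59 while both flanking named rows differ by 0.43 or less.

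Of the 357 rows, 189 lay 1 place from a named row, 272 at most 2 places and 339 at most 5, and 10 lay more than 10 places away. The nearest named rows, 296 different ones, included 196 rows of protein-coding genes, 31 of pseudogenes, 29 of long non-coding RNAs, 14 of small nuclear RNAs, 11 of small nucleolar RNAs and 9 of microRNAs. Of 254 nearest named rows above the filter, counted once for each unannotated row, 60 (23.6%) were higher by 1 or more and 6 (2.36%) lower, against 308 of 9938 (3.10%) higher beside unannotated rows that differed by less than 1. Of the different higher rows (47), 46 belonged to a protein-coding gene and 1 to a pseudogene, and none of the small RNA or long non-coding RNA rows was higher by 1. How many rows of each kind reached the filter was not counted. The small RNA and long non-coding RNA rows are few, so this is not read as a difference between kinds of gene.

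These counts differed between the named rows before and after. Of 249 named rows above the filter that stood before one of the 357 rows in its list, 72 (28.9%) were higher by 1 or more, 3 (1.20%) were lower, and the median difference was 0.52. Of 231 that stood after, 13 (5.63%) were higher and 8 (3.46%) lower, with a median of 0.10. The background is 4.11% higher among all rows with 1 gene, and beside unannotated rows that differed by less than 1 it is 3.37% before and 3.18% after. The order held in both lists: in the forward lists 33 of 110 before and 1 of 102 after were higher, in the reverse lists 39 of 139 and 12 of 129. Unannotated rows lower by 1 or more had the same lopsided neighbours with the sign turned, 314 of 518 before (60.6%) and 64 of 388 after (16.5%) being lower. The 72 counts come from 48 different named rows, since rows of a run share the gene before them, and the 8 rows whose list is not settled, 5 on chromosome 18 and 3 on the mitochondrial genome, are left out.

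**Figure D3:**
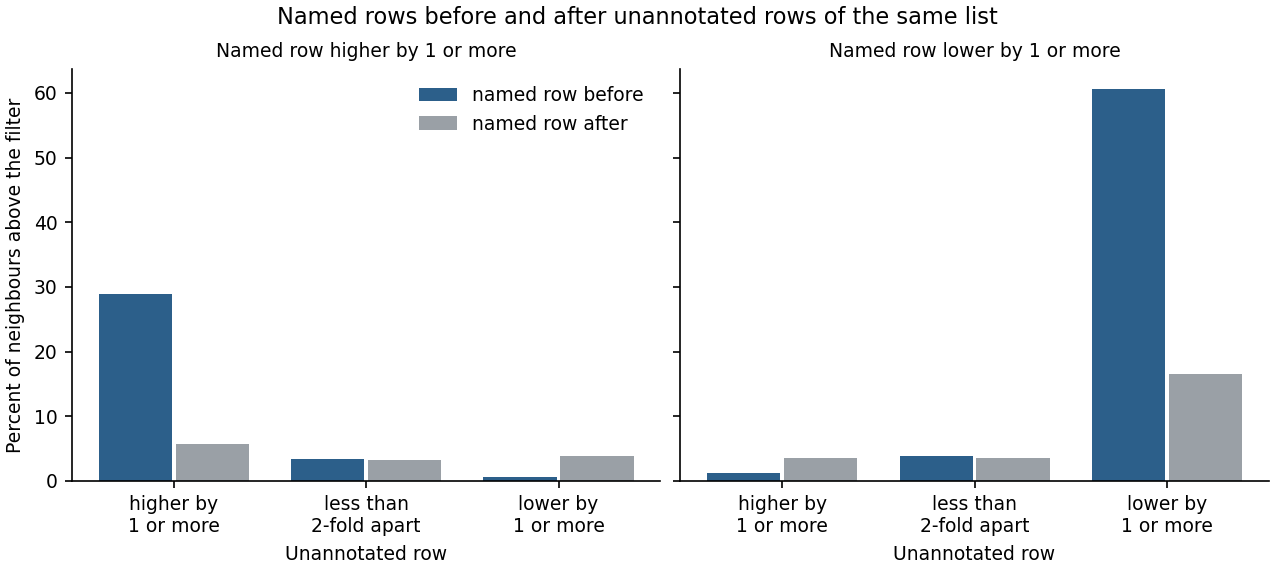
Bars give the percent of named rows above the filter that were higher (left) or lower (right) by 1 or more, for the named row before (blue) and after (grey) unannotated rows of 3 kinds on the x axis. Before the higher unannotated rows 28.9% of named rows were higher, after them 5.63%.

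The same values can be read from the gene's side. Of 79 unannotated rows above the filter that followed a named row higher by 2 or more, 26 (32.9%) were among the 357. Behind named rows higher by 1 to 2 it was 46 of 325 (14.2%), behind those higher by 0.5 to 1 it was 62 of 903 (6.87%), behind those within 0.5 of equality 102 of 7458 (1.37%), and behind those lower by 1 or more 3 of 687 (0.437%). For the named row that follows, 13 of 315 (4.13%) lay ahead of a row higher by 1 or more. Across the 10526 unannotated rows above the filter with such a gene before them the Pearson correlation of the 2 differences was 0.51, and across the 9657 with such a gene after them it was 0.11; these rows share 2 arrays, and several share a gene.

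**Figure D4:**
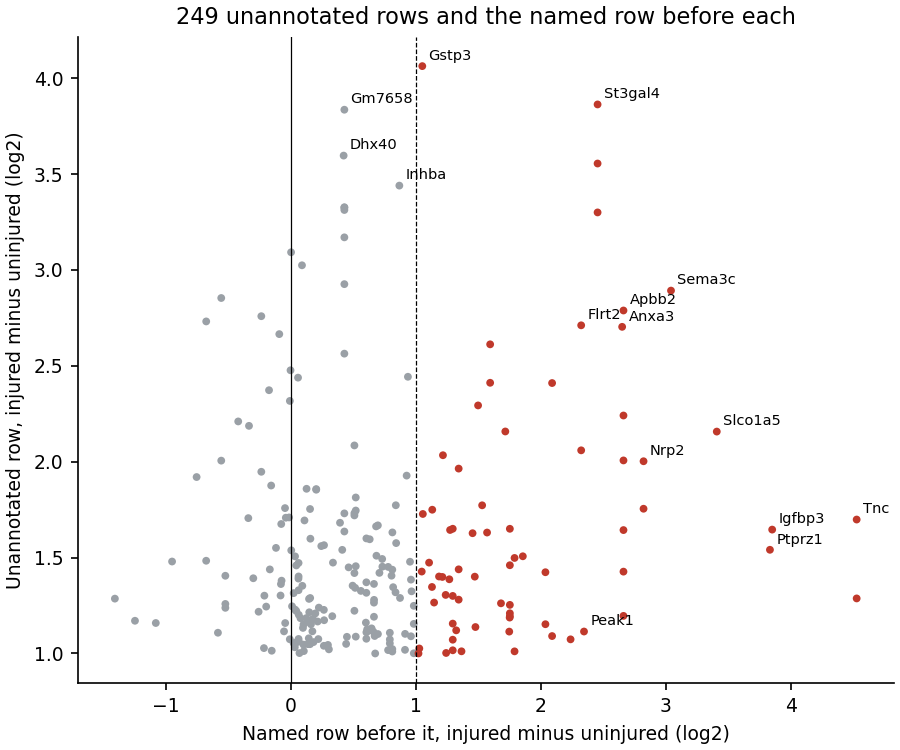
Each point is 1 of 249 unannotated rows higher by 1 or more whose preceding named row is above the filter, with the difference of the named row on the x axis and of the unannotated row on the y axis (log2, injured minus uninjured). Red points right of the dashed line have a named row higher by 1 or more; Tnc at 4.53 lies farthest right and St3gal4 with 3.86 among the highest.

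Some genes before such rows make matrix proteins, signalling ligands or proteins that bind growth factors. Those given here were higher by 1 or more and were chosen after their values were seen. Others of these kinds before such rows were not higher by 1, such as Fgf8 (0.15), Fgf18 (0.05), Col3a1 (-0.17) and Wnt4 (-0.67). Tnc encodes tenascin C, a matrix protein deposited in wounds, and was at 10.25 and 5.72, a difference of 4.53. The rows 1 and 3 places behind it, TC0400002813 (5.57 and 4.28) and TC0400002815 (6.19 and 4.49), had differences of 1.29 and 1.70. Igfbp3, a binding protein of insulin-like growth factors, was at 9.77 and 5.92, a difference of 3.85, and TC1100002196 behind it at 7.08 and 5.44. Bmp3, a ligand of the TGF-beta superfamily, was at 8.56 and 7.06, and TC0500000954 behind it at 7.53 and 5.24, a difference of 2.29. In the Bmp3 pair the unannotated row differed more than the gene, and in the Tnc and Igfbp3 pairs less.

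Semaphorins and their receptors steer migrating cells as well as axons, and 4 genes of guidance or adhesion that stood before such rows are given next. Sema3c, a secreted semaphorin, was at 8.32 and 5.28, a difference of 3.04, and TC0500000132 directly behind it at 6.76 and 3.87, a difference of 2.89. Nrp2, a receptor subunit for semaphorins and VEGF, was at 8.80 and 5.97 (2.82), and the pair TC0100000510 and TC0100000511 behind it at 6.57 and 4.81 (1.75) and 6.84 and 4.84 (2.00). Flrt2, a transmembrane adhesion and guidance protein, was at 9.03 and 6.70 (2.32), with TC1200000952 at 6.44 and 4.38 (2.06) and TC1200000953 at 8.25 and 5.53 (2.71). Ptprz1, a receptor tyrosine phosphatase, was at 9.33 and 5.50 (3.83), and TC0600000199, 6 places behind it, at 7.77 and 6.23 (1.54). In these 4 neighbourhoods the uninjured values of genes and unannotated rows were at 6.70 or less. Those of Nrp2, Flrt2, Ptprz1, TC1200000953 and TC0600000199 lay above the filter. Those of Sema3c and the remaining unannotated rows lay below it.

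Further genes higher by 1 or more stood before such rows; like the guidance genes they were chosen after their values were seen and form no list. Anxa3, a calcium-dependent membrane-binding annexin, was at 10.77 and 8.11 (2.65), and TC0500000929 directly behind it at 7.68 and 4.97 (2.70). Ano6, a calcium-activated phospholipid scramblase and channel, was at 7.66 and 5.57 (2.09), with TC1500000940 at 6.48 and 4.07 (2.41) and TC1500000944 at 6.26 and 5.17 (1.09). Fhl2, a LIM-domain cofactor, was at 7.78 and 6.18 (1.60), with TC0100002262 at 6.08 and 3.67 (2.41) and TC0100002263 at 7.18 and 4.57 (2.61). Map1b, a microtubule-associated protein, was at 8.45 and 6.41 (2.04), with the rows TC1300002522 (5.47 and 4.32) and TC1300002523 (6.76 and 5.34). Smo, the transducer of Hedgehog signals, was at 9.92 and 8.17 (1.75), with TC0600000243 at 7.02 and 5.90 (1.11). Slco1a5, an organic anion transporter, was at 8.02 and 4.61 (3.41), with TC0600003372 at 6.48 and 4.32 (2.16). Other genes in this position were Peak1, Atp10a, Ammecr1, C1galt1, Septin11, Farp1, Csrp1, Srgap1, Diaph2 and Diaph3, higher by 1.03 to 2.35, with unannotated rows higher by 1.03 to 2.16.

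Cell division genes stood on either side, and those given here were chosen for being higher by 1 or more. Others before such rows were not, such as Bub3 (0.27), Kif24 (0.66) and Cenpu (0.96). Cdk1, the kinase that drives entry into mitosis, was at 9.13 and 7.20 (1.94), and TC1000002340 directly before it at 7.66 and 5.98 (1.68). Kif4, a chromosome-bound kinesin, was at 8.75 and 6.89 (1.86), with TC0X00000959 behind it at 6.08 and 4.57 (1.51). Knl1, a kinetochore scaffold, was at 8.90 and 7.11 (1.79), with TC0200001759 (6.25 and 4.75) and TC0200001760 (7.75 and 6.74) behind it. Cenph, a kinetochore subunit, was at 7.84 and 6.62 (1.22), and TC1300002543 behind it was at 9.26 and 7.23 (2.03). Cdca2, a mitotic phosphatase regulator, was at 8.46 and 7.18 (1.28) and had such rows on both sides, TC1400002289 (1.52) before and TC1400002291 (1.64) behind. Parpbp, Spdl1, Incenp and Mis18a followed such rows and were higher by 1.18 to 1.59. In the mitosis list, 23 of 24 measured genes were higher by 1 or more with a median of 1.92, against 4.14% and a median of 0.06 over 19512 genes. Of its 25 genes Cdk1 alone flanked one of the 357 rows, and how many unannotated rows flank these genes was not counted.

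Behind histone genes of the clusters on chromosome 13, which are transcribed during DNA replication, lay 5 such rows. TC1300001559 was at 11.15 and 9.37 (1.77) between H2ac15 (9.59 and 8.05) and H1f5, higher by 1.93. TC1300001566, directly behind H2ac24 (5.74 and 4.63), was at 9.21 and 7.74 (1.47), and TC1300000180, directly behind H2bc22 in the forward list, had exactly the same values. TC1300000251 lay 3 places behind H1f3 (5.60 and 4.58) and TC1300001639 9 places behind H2bc9 (6.59 and 5.38), with differences of 1.00 and 1.40, and rows that name several histone genes lay between. These 5 rows are given because a histone gene stood before them. Of these 5 genes 4 were higher by 1 or more, H2bc22 (0.34) being the exception. The share of members among all unannotated rows behind histone genes was not counted. On chromosome 13 as a whole 26 of 587 unannotated rows above the filter were members (4.43%), beside 7.23% of its 692 rows with 1 gene.

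Of the 9 gene lists used, 5 had a gene next to one of the 357 rows in its list. The matrix and growth factor list had 4 such genes with 5 rows (Tnc, Igfbp3, Inhba and Ereg), and the mitosis, ribosome assembly, actin and long non-coding RNA lists had 1 each. Inhba, the subunit of activin A, was at 6.99 and 6.12, a difference of 0.87, and TC1300000114 directly behind it at 7.40 and 3.96, a difference of 3.44. Ereg, an EGF receptor ligand, was at 8.94 and 8.53 (0.41), with TC0500000857 behind it at 8.46 and 6.92 (1.54). Npm1, a nucleolar chaperone in ribosome assembly, was at 11.59 and 10.00 (1.59), with TC1100002485 before it at 6.94 and 5.48 (1.46). Pvt1, a long non-coding RNA, was at 5.50 and 4.81 (0.69), with TC1500000457 at 5.85 and 4.34 (1.51). None of the keratin, cornified envelope, protease or cytokine genes of the lists flanked one of the 357 rows. Of those measured, 7 of 7, 13 of 21, 8 of 14 and 10 of 17 were higher by 1 or more. How many unannotated rows above the filter flank the genes of each list was not counted. The list counts therefore have no background share and are not read as an absence.

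Many of the rows had no gene higher by 1 beside them, a smaller share than among unannotated rows that differed by less than 1. Of 348 with a named row on both sides of the list, 264 (75.9%) had none higher by 1 or more, against 11984 of 12592 (95.2%) for unannotated rows that differed by less than 1, and 1 had a higher row on both sides. The median difference of the 264 was 1.34 and that of the other 84 was 1.47. Only the first named row on each side was counted, so a higher gene beyond it is missed. Kcnq5 (1.80) lies beyond Gm7658 at the chromosome 1 run, and Sprr1b (5.30) beyond Gm9774 at the chromosome 3 stretch.

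Rows without a higher gene on either side included these. TC1400001442 was at 12.93 and 11.74 (1.18), directly behind Cfap20dc (7.69 and 7.56). TC1100003460 was at 12.39 and 8.79, a difference of 3.60, and lies between Dhx40, a helicase gene (a difference of 0.42), and Ypel2, which was lower after wounding (8.02 and 9.70, a difference of -1.68), as were the 2 rows behind Ypel2 (-2.05 and -1.33). TC0900001232 was at 12.18 and 10.88 (1.30), between Nmnat3 (6.67 and 6.75) and Rbp2, a retinol-binding protein gene (10.18 and 10.99). TC1400002068 was at 11.76 and 10.60 (1.16), between Slc7a8 and Homez, which differed by 0.14 and -0.25. TC0200005460 was at 10.74 and 7.03 (3.71), with Entpd2, an ectonucleotidase gene, 2 places behind at 6.79 and 6.93. TC1700000557 and TC1700000558 formed a pair at 11.30 and 9.45 and at 11.75 and 10.12.

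Some rows lay among receptor genes whose rows were below the filter. TC1400001972 was at 11.94 and 8.93, a difference of 3.01, while the olfactory receptor genes on both sides, Olfr724 and Olfr725, were below the filter at 4.88 and 4.72 and at 3.75 and 4.02. Of the 357 rows, 7 (1.96%) had an olfactory or vomeronasal receptor gene as the nearest named row, against 97 of 13029 (0.744%) of the unannotated rows that differed by less than 1. The 7 include TC0500003700 and TC0500003701 of the run behind Stard13, and TC0100003705, 5 places behind Enah. In these a receptor gene was only the nearer flank, and rows of 1 run are not independent. The share is therefore not read as a result about receptor genes. TC1300000235, at 10.27 and 7.83, lay next to Vmn1r223, a vomeronasal receptor gene at 3.12 and 3.36. TC1300000651, at 11.53 and 9.06 (2.48), lay between Fgfr4, a fibroblast growth factor receptor gene, and Nsd1, a histone methyltransferase gene, which differed by 0.03 or less. Unlike the receptor genes above, Fgfr4 was above the filter, at 6.19 in both arrays.

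A few rows lay beside genes that were lower after wounding. Csgalnact1, which starts chondroitin sulfate chains, was at 5.39 and 7.63 (-2.23), and TC0800002346 and TC0800002347 before it at 6.65 and 4.90 and at 6.63 and 5.58. Clic5, an actin-linked chloride channel family member, was at 7.48 and 8.89 (-1.40), with TC1700000848 behind it higher by 1.29. Enpp3 (-1.01) and Liph (-1.08) were each 1 place from a row higher by 1.59 and 1.16. Sema6d, a transmembrane semaphorin, was at 6.65 and 7.51 (-0.86), and TC0200001864, 2 places before it, at 9.94 and 7.02 (2.92).

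Rows next to microRNAs were 9 in number, and in none was the microRNA's own row higher by 1. The largest difference among these was that of TC0900000474, directly behind Mir125b-1, at 10.01 and 7.54, a difference of 2.47 or 5.54-fold, while the row of Mir125b-1 was below the filter at 3.67 and 3.50. TC0700001334 (6.24 and 4.96) lies between Mir708 (5.68 and 5.02) and Mir6394 (7.48 and 7.32), and TC0700001337 (7.21 and 6.06) 2 places behind Mir6394. TC1700000212 (7.66 and 6.37) lies 2 places behind Mirlet7e, at 6.80 and 5.93, and TC0700001434 (8.33 and 6.94) directly behind Mir139, at 9.30 and 9.23. Among the microRNA rows Mirlet7e differed most, by 0.88. An array row of a microRNA gene reads the transcript in that place and gives no measure of the mature sequences printed above.

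**Figure D5:**
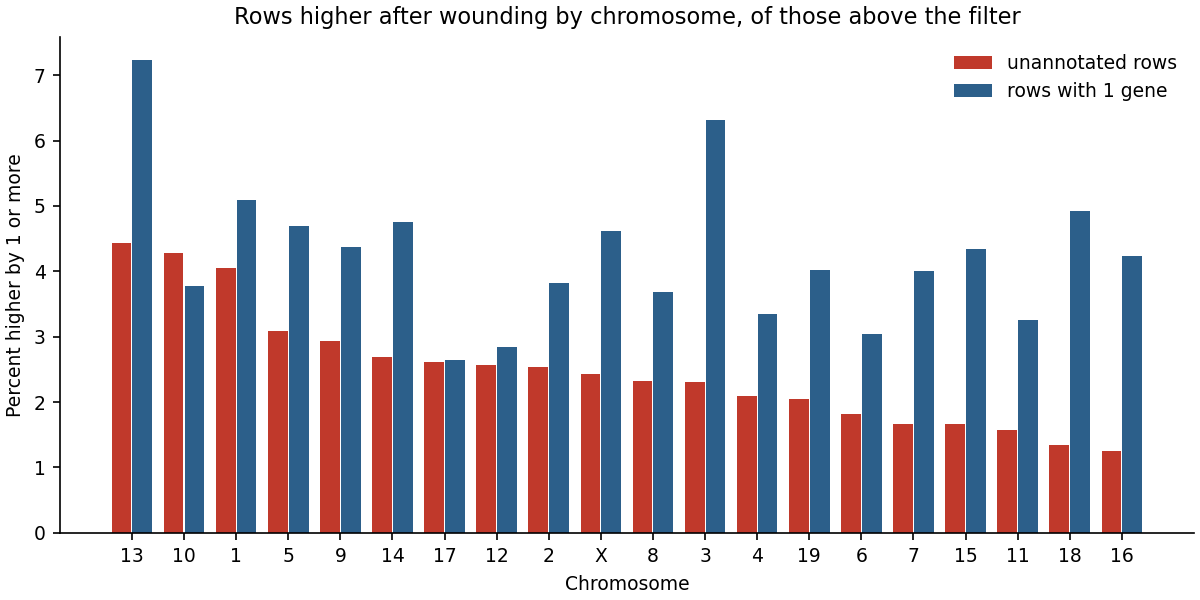
Bars give the percent of rows above the filter that were higher by 1 or more on each chromosome (x axis), for unannotated rows (red) and rows with 1 gene (blue); the mitochondrial genome and chromosome Y are left out for their few rows. Unannotated rows range from 4.43% on chromosome 13 to 1.25% on chromosome 16.

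Across chromosomes leaving out chromosome Y (2 of 18) and the mitochondrial genome for their few rows, the share of members among unannotated rows above the filter was highest on chromosomes 13 (4.43%), 10 (4.28%) and 1 (4.05%) and lowest on 16 (1.25%) and 18 (1.34%). On chromosome 10 the 32 members hold 25 different pairs of values, since 8 rows read exactly 6.38 and 5.38, a difference of 1.00. Of those 8, 5 had Ifng as the nearest named row, itself below the filter at 4.43 and 4.39. In all, 21 of the 357 rows shared both values with another row, and the 357 rows hold 343 different pairs of values; rows with the same values are not independent measurements. On the mitochondrial genome 3 of 19 unannotated rows were members, TC0M00000001 (7.89 and 6.76), TC0M00000017 (5.82 and 4.43) and TC0M00000020 (8.53 and 7.14). The 11 rows there with gene names differed by between -0.13 and 0.75, with a median of 0.06.

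The names depend on the annotation. RefSeq lists 1386 protein-coding genes that have no row of their own name here, and for 84 of 353 members (23.8%) at least 1 of these genes starts between the flanking named rows, against 16.7% for unannotated rows that differed by less than 1. A row without a symbol is unnamed here, which does not make it a row without a gene.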

How the data were processed

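The members and gene lists were chosen with earlier results of these data known. RNA from 2 corneal epithelium samples was measured on 1 array each; the number of arrays limits the precision. The deposited values are log2 intensities, 65952 rows between 2.54 and 14.07 with medians of 5.44 (injured) and 5.43 (uninjured), used as deposited. Agilent Feature Extraction 9.1 is named in the submitters' processing notes. The identifiers look like those of transcript clusters on another maker's arrays, so whether that software made these values is uncertain. The sources used here do not give the background correction, the normalization or the genome build. Symbols came from the platform annotation, updated through RefSeq (GRCm38.p6): 31254 rows with 1 gene, 1492 with several, 33206 unannotated. Rows were ordered by number within a chromosome code; the change from forward to reverse list was placed where RefSeq strands of named rows changed. A run is 2 or more consecutive members; the nearest named row is the one fewest places away, the earlier on ties. Named in the text are the 12 largest differences among rows reaching the 75th percentile in the brighter array, the 8 brightest, the 5 on each side of the threshold, up to 12 runs of 3 or more, neighbours of these, the 20 highest and 10 lowest neighbours within 5 places, neighbours of 3 or more members and list genes; not all are printed, and others were chosen after their values were seen. The before and after comparison and the sequences were also chosen after seeing the values. Scripts were tested on simulated data (Python 3.11.15, pandas 2.3.3, numpy 2.4.6, scipy 1.17.1). Alternatives covered normalization, filter, threshold, a constant before log2, run and neighbour rules.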

Additional observations from a re-analysis of the deposited data

How the results depend on the processing

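Quantile normalization, equal medians and loess (span 0.3) gave 336 to 339 members, all among the 357, and left the other counts within 1.5 times; so did allowing 1 other row in a run (115 rows in runs) or letting only named rows above the filter break one (133). The counts followed the filter and the threshold. With the filter at the 75th percentile there were 224 members (4.36%), 45 in runs, 22 with a higher nearest named row, 28 with a higher gene before and 7 after. Without a filter the share was 1.15% and the members 382. At 1.5-fold there were 864 members (6.16%), 227 in runs, 248 with a higher nearest row, 280 with a higher gene before and 92 after; at 4-fold 60 (0.428%), 19, 9, 13 and 0. A constant of the 5th percentile before log2 gave 274 members (1.95%) and 64 in runs. Under every setting run more members had a higher gene before than after. The median difference of the nearest named rows stayed between 0.07 and 0.25. Of 152 differences of 38 named members and runs recomputed with the normalizations and the constant, 143 moved by less than 0.25 and 9 by more. None changed sign, but a constant added to both values cannot change a sign, and all were chosen at 1 or more. The members named for lying just inside the threshold fell below 1 under each of these settings, the lowest to 0.753. The before and after counts and identical values counted once (343 members) were added after seeing the data. No paired analysis was possible because each group has 1 array. Dim rows are limited most: 135 members lay below the filter in the uninjured array, and no detection call stands behind a value.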
